A study of Mus musculus with 14 samples.

Results

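Hox genes encode homeodomain transcription factors that give cells of the trunk and spinal cord an address along the head-to-tail axis. They lie in clusters, and their order along each cluster follows the order in which they are used along the body: genes at the 3′ end act towards the head, genes at the 5′ end towards the tail. Members at matching places in different clusters are called a paralog group. In the spinal cord the middle groups are known for setting out motor columns, with Hox5 and Hox6 genes acting at cervical and forelimb levels, Hoxc9 at thoracic levels and Hox10 genes at hindlimb levels.

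The genes described here are those whose symbol is Hoxa, Hoxb, Hoxc or Hoxd followed by a number. There were 39 such genes among the 19215 genes of the RNA-seq tables, and they held 1 of the 13189 cassette exons of the splicing tables. The Hoxa cluster (chromosome 6) had 11 genes, Hoxb (chromosome 11) had 10, Hoxc (chromosome 15) had 9 and Hoxd (chromosome 2) had 9, in the mouse build mm9.

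The RNA came from whole spinal cord (WSC) of 2 mice, 1 male and 1 female, both 12 weeks old, on a B6/SJL background and carrying Tg(SOD1)2Gur/J, a transgene labelled as the wild type form of SOD1. NOVA is a neuronal RNA-binding protein, and CLIP recovers the RNA pieces that it touches in ultraviolet-treated tissue. CLIP from motoneurons (MNs) used 2 hemizygous BAC transgenic C57BL/6 lines, Chat:GFP-Nova #6 and #17, with 4 libraries each from pooled cords of mice aged 3 months. The Chat promoter drives the tagged protein, so these libraries report on cholinergic neurons, and the antibody was against GFP. CLIP from WSC used 4 wild type C57BL/6 mice of the same age and an anti-NOVA serum. All mice used were adult. The labels do not say which levels of the cord were taken.

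The RNA-seq libraries held 72006019 (male) and 65625173 (female) reads on genes. Reads deposited per CLIP library ran from 65961 to 871804 in MNs and from 2213104 to 6095995 in WSC. Markers of the tissue were abundant in the male and female RNA-seq libraries, with a summed RPKM of 6764 and 7270 for 3 oligodendrocyte genes, 639 and 689 for 3 astrocyte genes, and 282 and 278 for 5 interneuron genes. RPKM here is reads per kilobase of exon and 1000000 reads on genes, and CPM, used for CLIP, is reads per 1000000 reads on genes. In MN CLIP, Chat, the acetylcholine-making enzyme, was higher than in WSC by 3.08 on the log2 scale (SE 0.126, edgeR adjusted p = 2.55e-16), and Slc6a5, the glycine transporter of inhibitory interneurons, was lower, at -4.35 (SE 0.142, edgeR adjusted p = 2.36e-18).

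Adult spinal cord held RNA of most Hox genes. Of 39 genes, 29 had a mean of at least 1 RPKM, against 62.1% of all genes in the tables. The middle of the clusters carried nearly all of it. All 22 genes of paralog groups 4 to 10 reached 1 RPKM, and they made up 93.4% of the summed Hox RPKM. In groups 1 to 3, 5 of 8 genes reached it, and in groups 11 to 13, 2 of 9 did. With 1 library per sex, SDs below are over the 2 libraries.

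Paralog group 8 stood highest, with 32.9% of the summed Hox RPKM. Hoxb8 was at 55.1 RPKM in the male and 39.2 in the female library, a mean of 47.1 ± 11.2 (SD, n = 2). Hoxc8, which acts at brachial and thoracic levels, was at 42.4 and 49.4 RPKM, a mean of 45.9 ± 4.91 (SD, n = 2). Each of these was higher in a different library, and their means did not differ beyond that spread. Hoxd8 followed at 27.2 and 28.8 RPKM, a mean of 28.0 ± 1.12 (SD, n = 2). Hoxb6 was at 29.4 and 24.8 RPKM (27.1 ± 3.24, SD, n = 2), and Hoxb9 at 28.8 and 20.7 RPKM (24.7 ± 5.70, SD, n = 2). Hoxd8, Hoxb6 and Hoxb9 overlapped between libraries, so their order was not resolved. Hoxb8 lay at the 92.5th percentile of all genes in the tables.

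Levels were low at the 3′ end, highest in the middle and lower again beyond group 10. The mean RPKM summed over the 2 to 4 genes of a group was 8.41 for group 2, 10.9 for group 3, 14.9 for group 4, 37.5 for group 5, 48.1 for group 6 and 42.2 for group 7. It was 121 for group 8, 46.0 for group 9, 34.3 for group 10, 3.05 for group 11, 0.725 for group 12 and 0.241 for group 13. Genes of group 7, Hoxa7 and Hoxb7, were nearly equal, at 21.4 ± 0.665 and 20.8 ± 0.971 RPKM (SD, n = 2).

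**Figure D1:**
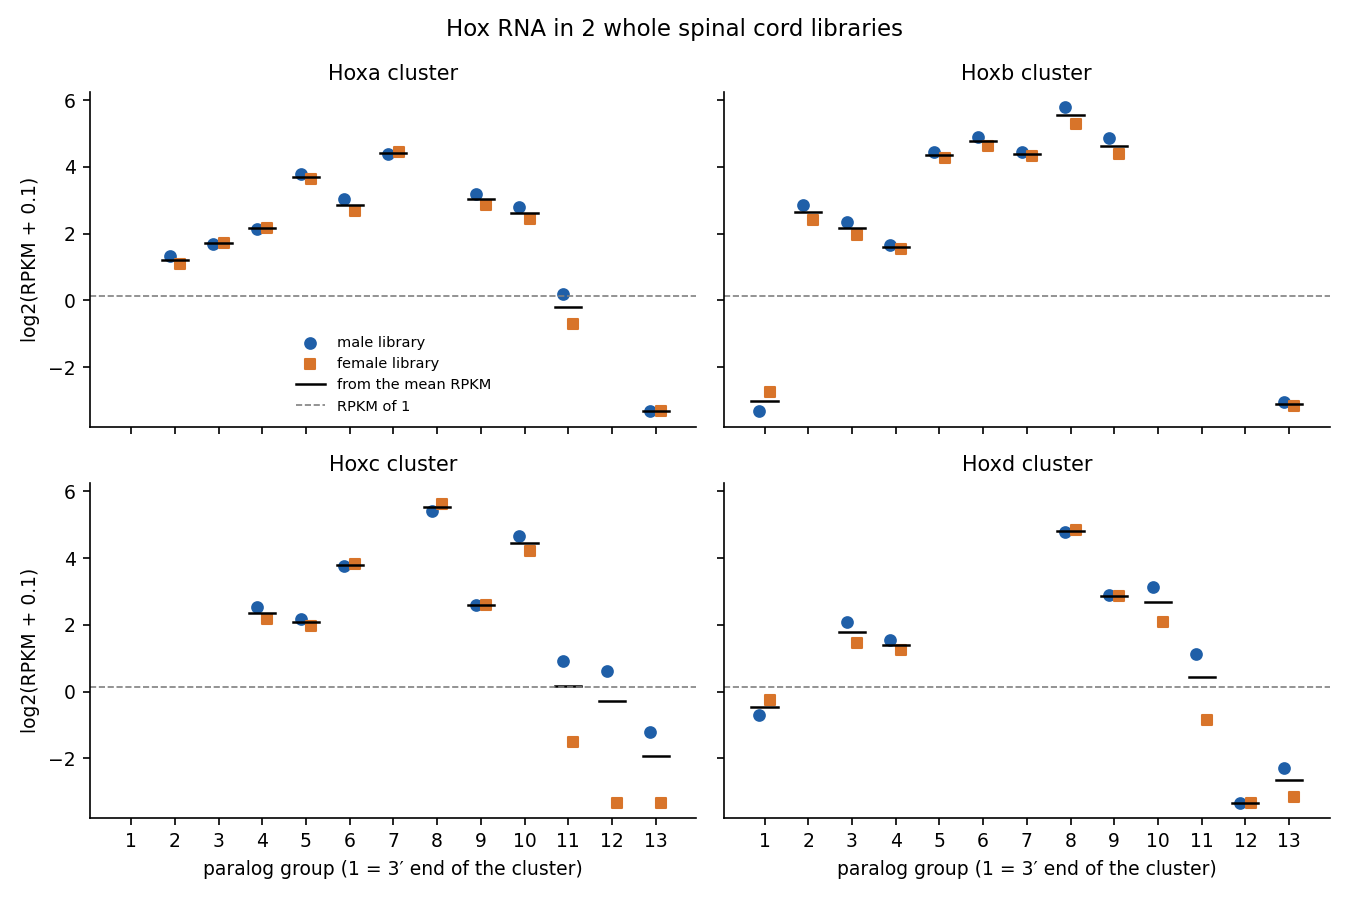
RNA level of Hox genes, log2(RPKM + 0.1), against paralog group, in 1 panel for each cluster. Circles are the male library, squares the female library, bars the value of the mean RPKM and the dashed line 1 RPKM. Group 8 stands highest in Hoxb, Hoxc and Hoxd, and the libraries lie farthest apart in groups 11 to 13 of Hoxc and group 11 of Hoxd.

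The clusters differed in level. The median log2(RPKM + 0.1) was 3.51 for Hoxb, 2.36 for Hoxc, 2.16 for Hoxa and 1.41 for Hoxd, beside 1.83 for all genes. Summed RPKM was 154 ± 25.4 for Hoxb, 98.5 ± 3.08 for Hoxc, 66.7 ± 4.26 for Hoxa and 49.5 ± 4.65 for Hoxd (SD, n = 2). These sums kept the same order in both libraries. Genes of 1 group were far from equal in several cases: in group 9, Hoxb9 was at 24.7 RPKM and Hoxc9, the thoracic motor column gene, at 5.88 ± 0.00306 RPKM (SD, n = 2). In group 10, Hoxc10 was at 21.8 ± 4.74 RPKM, and Hoxd10 and Hoxa10 at 6.39 ± 3.15 and 6.08 ± 1.02 RPKM (SD, n = 2).

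At the ends of the clusters RNA was scarce. Hoxa13 and Hoxd12 had 0 reads in both libraries. Hoxb13 had 2 reads in the male and 1 in the female library. Hoxb1, a hindbrain gene, had 0 and 5 reads, and Hoxd13, known from digit and genital patterning, had 19 and 2. Hoxc13 had 58 and 0 reads. Below 1 RPKM in the mean were also Hoxd1 (0.629 RPKM), Hoxc12 (0.725 RPKM) and Hoxa11 (0.778 RPKM).

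Some Hox exons overlap other genes, and the sources do not state strand-specific counting, so reads of a gene and an antisense partner cannot be told apart. By the GENCODE annotation of mm9, Hoxb8 shares 1069 of its 2645 exonic bases with Hoxb7 and Hoxd4 shares 1725 of 2560 with Hoxd3, so the division of reads within these pairs is uncertain. Exons on the opposite strand cover 49.4% of Hoxb2 and 37.9% of Hoxb3 (Hoxb3os) and 38.6% of Hoxa11 (Hoxa11as).

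The 2 RNA-seq libraries differed at the 5′ ends of the clusters. Of 32 Hox genes with at least 10 reads in each library, 5 were past 1.5-fold, or 15.6%, against 9.61% of all genes tested in this way. All 5 were higher in the male library, where 5.67% of all genes were past the fold in that direction. There is 1 library of each sex, so there is no replicate check, and sex, animal and dissection cannot be told apart.

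Hoxc11 had 117 reads in the male and 15 in the female library, and its RPKM was 7.11 times as high in the male. Hoxd11 had 151 and 30 reads, a ratio of 4.59. Hoxd10, a lumbar motor gene, had 1096 and 483 reads, a ratio of 2.07, and Hoxa11 had 169 and 75 reads, a ratio of 2.05. These 4 genes lie in the 5′ parts of their clusters, whereas the fifth, Hoxd3, lies towards the 3′ end and had 1154 and 667 reads, a ratio of 1.58. Hoxc12 had 88 and 0 reads, and the exact 95% interval of its female over male ratio reached 0.0470, counting error only. Hoxc13 had 58 and 0 reads, with an interval that reached 0.0720. Hoxd13, at 19 and 2 reads, was not counted because the female library held too few.

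Summed over paralog groups, the share of reads in the female library relative to the male was 0.869 for groups 1 to 9 and 0.654 for groups 10 to 13. It was 0.750 for group 2, 0.760 for group 3, 0.857 for group 4, 0.883 for group 5, 0.908 for group 6 and 1.00 for group 7. From group 8 it went down step by step, at 0.881, 0.788 for group 9, 0.700 for group 10 and 0.301 for group 11. The exact 95% interval for group 11 was 0.244 to 0.369, and for group 10 it was 0.671 to 0.730, counting error only. Group 12 had 88 male and 0 female reads, and group 13 had 79 and 3, a ratio of 0.0417 (exact 95% interval 0.00841 to 0.126). Of the 32 genes, 24 were lower in the female library and 8 higher. Hoxc8 was among the higher, at 1.16 times its male RPKM. Hoxd1, a group 1 gene, was also higher in the female library, with 70 and 90 reads, a ratio of 1.41 (exact 95% interval 1.02 to 1.96).

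**Figure D2:**
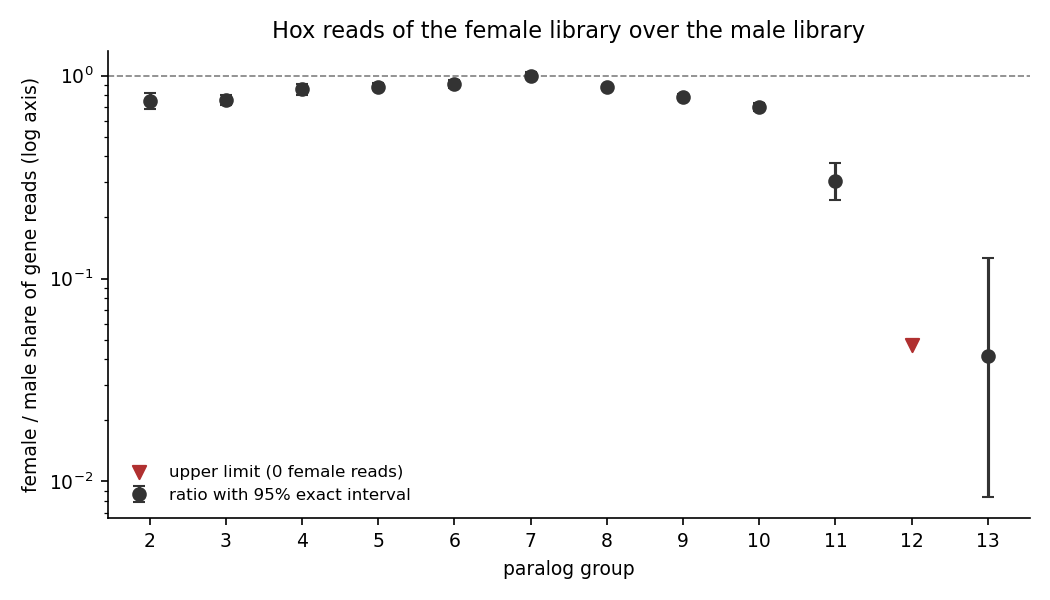
Share of reads on the genes of a paralog group in the female library divided by that in the male library, from group 2 onwards and on a log axis, with exact 95% intervals that cover counting error only. Groups 2 to 10 lie between 0.700 and 1.00, group 11 at 0.301 and group 13 at 0.0417. The triangle for group 12 is the upper limit of its interval, 0.0470, since it had 0 female reads.

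Other genes moved between the same 2 libraries. Over all genes tested, 3.95% were past 1.5-fold with the female library higher and 5.67% with the male higher. Of 5 motoneuron markers, 2 were past it, Slc5a7 at 28.0 and 46.9 RPKM and Mnx1 at 0.936 and 1.92 RPKM, both higher in the female library. The summed RPKM of that list was 62.7 in the male and 88.0 in the female library. All 3 blood markers were higher in the male library, with a summed RPKM of 96.5 against 39.3. Of 5 dorsal root ganglion markers 0 reached 1 RPKM, and Avil, the 1 with at least 10 reads in each library, was past the fold at 0.133 and 0.0804 RPKM. Of 4 skeletal muscle markers only Mylpf reached 1 RPKM, at 1.24 ± 0.0679 RPKM (SD, n = 2), and 2 were past the fold in opposite directions, Acta1 at 0.397 and 0.776 RPKM and Ckm at 0.215 and 0.140 RPKM. Of 4 meningeal markers 1 was past the fold, Lum at 0.328 and 1.08 RPKM. Their part in the Hox difference was not tested.

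Factors that work with, or act on, Hox genes were mostly present at levels near equal in both libraries. TALE homeodomain proteins of the Meis, Pbx and Pknox families bind DNA together with Hox proteins, and 9 of 9 were at 1 RPKM or more and 0 of 9 past 1.5-fold. Pbx2 was the highest, at 12.6 and 13.4 RPKM, and Meis1 the lowest, at 5.10 ± 0.334 RPKM (SD, n = 2). Polycomb genes, whose products keep silent Hox genes silent, reached 1 RPKM in 14 of 15 cases, from Cbx2 at 0.425 ± 0.0133 RPKM to Bmi1 at 17.4 ± 1.53 RPKM (SD, n = 2). Trithorax and H3K27 demethylase genes, which oppose Polycomb, did so in 8 of 8, from Kdm6b at 3.43 ± 0.185 RPKM to Ash2l at 21.4 ± 0.0782 RPKM (SD, n = 2). Kdm6a, an X-linked demethylase gene, was past 1.5-fold, at 5.15 RPKM in the male and 7.89 in the female library.

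Cdx genes, which switch on Hox genes in the embryo, and ParaHox genes were absent or nearly so. Of 6 such genes, 5 had 0 reads in both libraries, and Gsx1 had 6 and 13. Retinoic acid is another embryonic inducer of Hox genes, and 6 of 10 genes of its pathway reached 1 RPKM. Aldh1a1, a retinaldehyde dehydrogenase, was at 77.8 ± 1.95 RPKM and Cyp26a1, which breaks retinoic acid down, at 0.107 ± 0.0911 RPKM (SD, n = 2). Of the 9 with at least 10 reads in each library, 2 were past 1.5-fold, both low and higher in the female library: Aldh1a3 at 0.102 and 0.224 RPKM and Crabp2 at 0.201 and 0.406 RPKM. Of 7 motor column and pool genes, 5 reached 1 RPKM, led by Foxp1, the Hox accessory factor of limb-level motor columns, at 2.79 ± 0.470 RPKM (SD, n = 2), and Runx1 was the lowest at 0.212 ± 0.0788 RPKM (SD, n = 2). Runx1 was also the 1 of these 7 past 1.5-fold, at 0.156 and 0.267 RPKM. Of 10 forebrain and midbrain patterning genes, 1 reached 1 RPKM, Neurod6 at 2.56 ± 0.429 RPKM (SD, n = 2). Otx1, Otx2, Emx2, Six3, Six6 and Nkx2-1 had 0 reads.

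NOVA CLIP reads lay on most Hox genes. WSC CLIP had at least 1 read on 35 of 39 Hox genes and MN CLIP on 31, where 73.1% and 62.9% of all genes had at least 1. A single read counts here, and no background level was used here. Hoxb1, Hoxc12, Hoxd1 and Hoxd12 had 0 in every CLIP library. With reads on exons shared between genes left out, Hoxa7 had the most WSC reads, 1100, followed by Hoxb9 with 879, Hoxc10 with 861, Hoxc8 with 852 and Hoxd10 with 700. Hoxb8 and Hoxb7 share exons, and with shared reads counted for each they had 783 and 727, both above Hoxd10. Counts follow both how much RNA there is and how often NOVA is bound to it.

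Of the reads in Hox genes, 67.6% in WSC and 54.3% in MNs lay in 3′UTRs, 18.6% and 35.7% in introns, and 8.75% and 4.34% in coding sequence, with a read in the body of more than 1 Hox gene counted for each. Of 20 genes with at least 100 WSC reads, 14 had most of them in the 3′UTR and 6 in introns. Hoxd8 (97.2%), Hoxa10 (97.1%), Hoxc8 (96.9%) and Hoxb9 (96.6%) were at one end, with nearly every read in the 3′UTR. Hoxb3 (88.8%), Hoxd3 (87.6%) and Hoxc6 (77.5%) were at the other, with their reads mainly in introns. Hoxa5 was unlike both, with 36.8% of its reads in the 5′UTR.

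**Figure D3:**
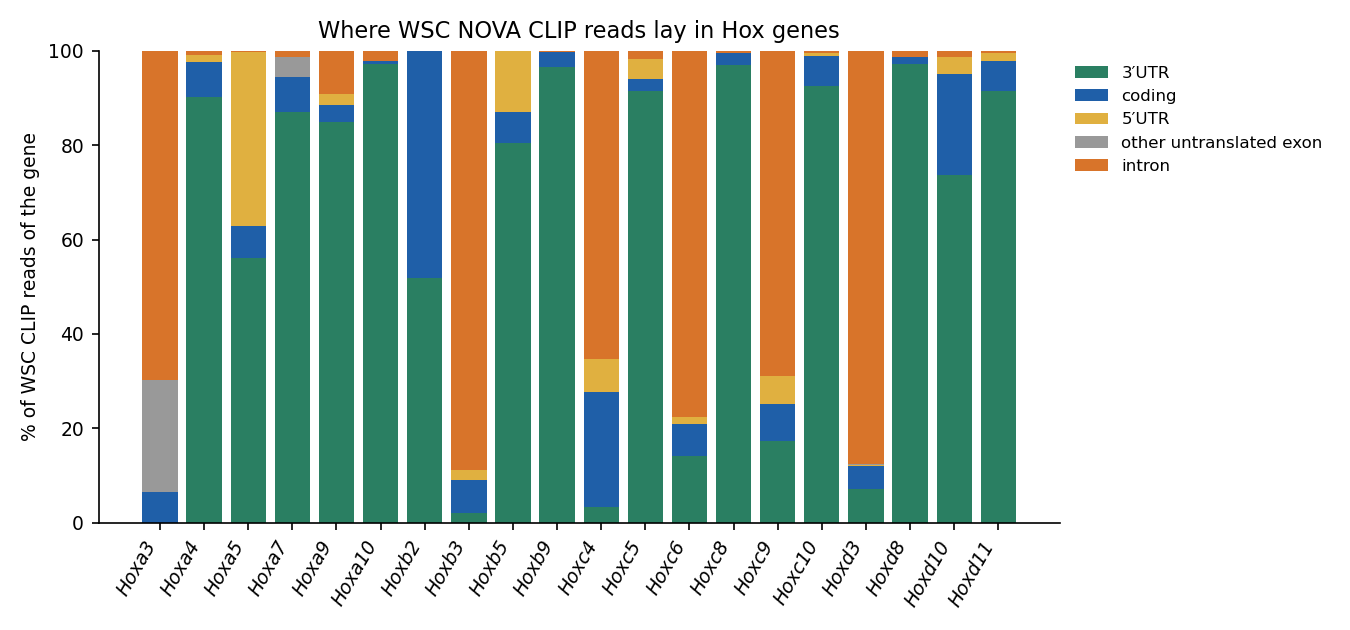
Percent of the WSC CLIP reads of each Hox gene that lay in the 3′UTR, coding sequence, 5′UTR, other untranslated exon or intron, for the 20 genes with at least 100 WSC reads, pooled over 4 libraries. Hoxa3, Hoxb3, Hoxc4, Hoxc6, Hoxc9 and Hoxd3 are mostly intronic, and the other 14 mostly 3′UTR.

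Reads were often packed into 1 short stretch. NOVA is known to bind clusters of a 4-base motif, spelled here as TCAT or TCAC (with T first) and CCAT or CCAC (with C first), on the transcript strand only. The sequences below are the 30 bases around the highest WSC coverage of genes the CLIP results turn on. They read 5′ to 3′ along the transcript, are taken from mm9 and carry the motif in capitals.
Hoxc10 3′UTR: ctctcTCATctcagaaattCCATccagaag
Hoxc8 3′UTR: gTCACCATaaTCATgaaaataatatactga
Hoxa7 3′UTR: ttgtgtgctggctagcTCACctgcttctcg
Hoxd10 3′UTR: atcCCACCCATctatcccgccagcaatgtg
Hoxd11 3′UTR: atacagatTCATactgggggtTCACCATaa
Hoxb9 3′UTR: tcagagtggggactTCACctcctgcaaagt
Hoxd8 3′UTR: cataaacttcctaatgatcagcgctagatg
Hoxd3 intron: catttcTCATCCATaaaaagtaactactga

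The Hoxc10 window (chr15:102802120-102802149, plus strand) held 678 of its 861 WSC reads, or 78.7%, from all 4 libraries, and 17 of its 34 MN reads. For Hoxc8 (chr15:102824131-102824160, plus strand) it was 285 of 852 WSC reads and 10 of 44 MN reads. For Hoxa7 (chr6:52165179-52165208, minus strand) it was 229 of 1100 and 13 of 60. Hoxd10 (chr2:74532775-74532804, plus strand) had 266 of 700 WSC reads there and 13 of 41 MN reads. In the Hoxd3 intron (chr2:74558207-74558236, plus strand) there were 147 of 564 WSC reads and 9 of 55 MN reads. Thus in these 5 genes the stretch where WSC reads were densest also held MN reads, from 4 or 5 MN libraries each. The same held for Hoxb5, with 201 of 365 WSC and 6 of 14 MN reads in its window, and for Hoxc6, with 63 of 311 and 6 of 38. It did not hold for every gene. Hoxa9 had 84 of 251 WSC reads and 0 of 19 MN reads in its window, and Hoxa5 had 108 of 378 and 0 of 18.

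In Hoxd11, Hoxb9 and Hoxd8 the MN reads of the window came from 1 or 2 libraries. The Hoxd11 window (chr2:74523849-74523878, plus strand) held 88 of 223 WSC reads and 4 of 12 MN reads. The Hoxb9 window (chr11:96137444-96137473, plus strand) held 170 of 879 WSC reads and 1 of 8 MN reads, and the Hoxd8 window (chr2:74545185-74545214, plus strand) 161 of 499 and 1 of 11.

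Of the 28 Hox genes with at least 20 WSC reads, 23 (82.1%) had at least 1 of the 4 spellings in the 30-base window. Among 8682 windows of the same length laid end to end over these genes, 30.1% did, and 29.8% of the 2796 windows in exons did. A window held 1.46 of them on average, against 0.372 over all windows. Hoxd8 was among the 5 genes without it, with 0 in its window and 0 within 50 bases of its highest point. These shares are descriptions of letters and were not tested.

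Hox genes with more RNA-seq reads mostly had more CLIP reads, which is a description over genes that share libraries. Over 32 Hox genes with at least 100 RNA-seq reads, Spearman's rho between WSC CLIP reads and RNA-seq reads per 1000000 reads on genes was 0.816, beside 0.702 over all 12199 such genes. The ratio of these measures had a median of 0.934 over the Hox genes and 0.476 over all genes, and 27 of 32 Hox genes were above the latter. Gene length need not cancel in it. CLIP reads were counted over GENCODE exons and introns, and RNA-seq reads over the exon models of the deposited counts, which can differ in length. For this comparison, CLIP reads on exons shared between genes were counted for each gene. Hoxb8 and Hoxb7 thus entered with 783 and 727 reads, which are in part the same reads. The mice differed in genotype and strain between the measures.

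Hoxd11 and Hoxd10 had the highest ratios of the family. Hoxd11 had 15.7 CLIP reads and 1.32 RNA-seq reads per 1000000 reads on genes, a ratio of 11.9 at the 98.5th percentile of all genes. Its RNA differed between the RNA-seq libraries, and the ratio was 7.47 with the male library alone and 34.3 with the female library alone. Hoxd10 had a ratio of 4.29, or 3.23 with the male and 6.68 with the female library alone. The exons counted for Hoxd11 spanned 5426 bases in CLIP and 1011 in RNA-seq, and those for Hoxd10 2651 and 1767. The part of this in the ratios was not tested. At the other end were Hoxd1 with 0 CLIP reads, Hoxb6 with a ratio of 0.151 and Hoxd9 with a ratio of 0.185. Hoxd9 and Hoxd10, neighbours in the cluster, thus lay far apart, with 40 and 700 WSC CLIP reads.

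**Figure D4:**
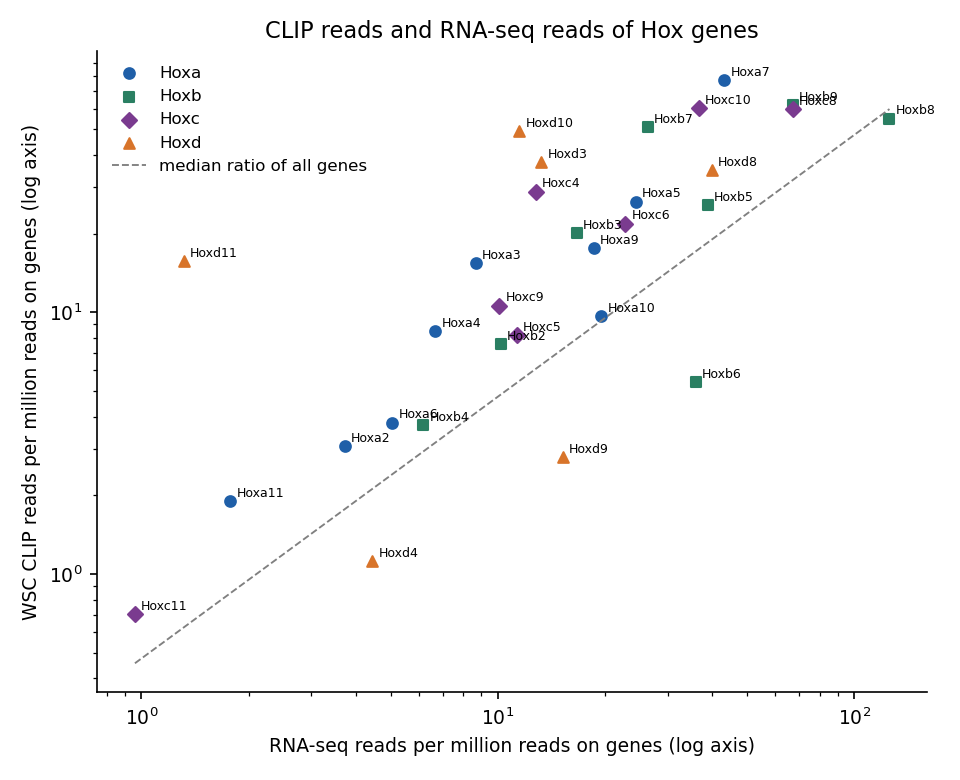
WSC CLIP reads against RNA-seq reads, both per 1000000 reads on genes and on log axes, for the reported Hox genes with at least 100 RNA-seq reads. CLIP reads on exons shared between genes count for each gene. The dashed line is the median ratio of all genes, 0.476, and Hoxd1, at 0 CLIP reads, is not drawn. Hoxd11 lies farthest above the line, and Hoxb6, Hoxd9 and Hoxd4 farthest below it. The Hoxd4 gene body lies wholly within Hoxd3. Of its 7183 bases, 6200 are on exons of both genes or introns of both, and reads on the shared introns were left out.

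Wild type cords also differed in reads of the most caudal group. Group 13 had 11, 3, 20 and 6 WSC CLIP reads in replicates 1 to 4, or 3.95, 0.598, 4.31 and 3.33 CPM. Replicate 2, the deepest library, was the lowest, with an exact Poisson 95% interval of 0.123 to 1.75 CPM against 2.64 to 6.66 in replicate 3. In replicate 2, Hoxa13, Hoxb13 and Hoxd13 all had 0 reads. For group 11 the values were 20.5, 18.5, 19.0 and 12.2 CPM, and for group 10 they were 137, 105, 125 and 119. Intervals here cover counting error only.

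MN CLIP held a smaller share of Hox reads than WSC CLIP. The 8 MN libraries had 464 Hox reads among 1566477 reads on genes, 296 CPM, and the 4 WSC libraries 8932 among 14236235, 627 CPM. Over libraries the range was 189 to 331 CPM in MNs and 605 to 657 in WSC, without overlap. The kind of read differed too: 38.2% of MN reads on genes and 63.2% of WSC reads were exonic. Per 1000000 exonic reads, Hox exons had 520 in MNs (311 to 604 over libraries) and 819 in WSC (786 to 844), still without overlap. MN and WSC CLIP also differ in antibody, tagged protein, pooling and depth, and these cannot be told apart from cell type. By the name of the first read of each library, replicates 3 and 4 of each MN line were on the flow cell of the WSC libraries. The other 4 MN libraries were not. On that flow cell the MN libraries and WSC replicate 1 were in lane 1, and WSC replicates 2 to 4 in lane 2. Names of later reads were not examined. In bulk samples, fewer cells of a type and less RNA per cell cannot be told apart either.

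Of 39 Hox genes, 4 passed the filter on low counts in edgeR, and all 4 were lower in MNs at an FDR of 0.01, where 29.1% of the 4560 genes tested were lower and 27.6% higher. Genes this low in MN depth passed only through their WSC reads, so their number is no evidence about Hox genes as a group. Hoxb9 stood apart from the others. Its reads in the MN libraries were 0, 1, 0 and 1 in line 6 and 0, 3, 0 and 3 in line 17, against 209, 296, 278 and 96 in WSC. Pooled, that was 5.11 CPM in MNs (exact Poisson 95% interval up to 10.1) and 61.7 in WSC. The log2 difference was -3.68 (SE 0.403, edgeR adjusted p = 1.54e-08), a 12.8-fold lower level. Its RNA, at 24.7 RPKM in WSC, was among the 5 highest of the family.

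Hoxc10 had 0, 2, 11 and 5 reads in line 6 and 0, 3, 0 and 13 in line 17, against 211, 288, 260 and 102 in WSC, a log2 difference of -1.40 (SE 0.264, edgeR adjusted p = 4.88e-05). Hoxc8 had 2, 1, 9 and 7 reads in line 6 and 0, 3, 0 and 22 in line 17, against 179, 242, 311 and 120, a log2 difference of -1.04 (SE 0.250, edgeR adjusted p = 0.000743). Hoxa7 had 1, 1, 13 and 5 reads in line 6 and 2, 4, 6 and 28 in line 17, against 236, 412, 313 and 139, a log2 difference of -1.01 (SE 0.202, edgeR adjusted p = 0.000109). Hoxa7 alone of these 4 had reads in all 8 MN libraries. With line 6 alone set against WSC, Hoxc10 (-1.05) and Hoxc8 (-0.96) were no longer past the FDR.

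Reads on the exons that Hoxb7 and Hoxb8 share are left out of these counts. In a setting added after seeing the data, such reads were counted for each gene, and 6 Hox genes were tested and lower, where 29.3% of 4576 genes were lower and 27.6% higher. The genes added were Hoxb7 (-2.12, edgeR adjusted p = 7.56e-07) and Hoxb8 (-2.15, edgeR adjusted p = 3.02e-07), whose values rest in part on the same reads.

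With the filter dropped, 35 Hox genes could be tested, and 12 were lower and 0 higher, where 16.2% of 16595 genes were lower and 6.36% higher and the median of all genes was -0.48. The 12 were Hoxa4, Hoxa5, Hoxa7, Hoxa10, Hoxb2, Hoxb3, Hoxb5, Hoxb9, Hoxc8, Hoxc10, Hoxd8 and Hoxd10. Hoxc6, a forelimb-level gene, was not among them, with 38 MN and 311 WSC reads, or 24.3 and 21.8 CPM.

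Counting exon reads alone, again with no filter, left 2 Hox genes lower, where 8.09% of 15192 genes were lower, 3.36% higher and the median of all genes was -0.74. They were Hoxb9 (-3.09, edgeR adjusted p = 1.34e-10) and Hoxd8 (-1.76, edgeR adjusted p = 0.000621). Hoxd8 had 11 MN reads in all, at most 5 in a library, against 99, 185, 156 and 59 in WSC. Hoxc10 (-0.85), Hoxc8 (-0.45) and Hoxa7 (-0.40) did not pass there. With exon reads and the filter kept, Hoxa7 was the 1 Hox gene tested and was at -0.22 (edgeR adjusted p = 0.386). Hoxa7, Hoxc8 and Hoxc10 were thus called when the introns of all genes were counted and not on exons alone, while Hoxb9 was called both ways. Few of their own WSC reads lay in introns, 1.36% for Hoxa7, 0.469% for Hoxc8 and 0.581% for Hoxc10. Over all genes 38.2% of MN and 63.2% of WSC reads were exonic, and the part of that difference here was not tested. With the MN libraries of the WSC flow cell only, 9 of 18 Hox genes tested were lower and 0 higher, where 20.9% of 8971 genes were lower and 16.1% higher. The filter was kept there, and genes low in MN depth passed it through their WSC reads. That number, too, is no evidence about Hox genes as a group.

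**Figure D5:**
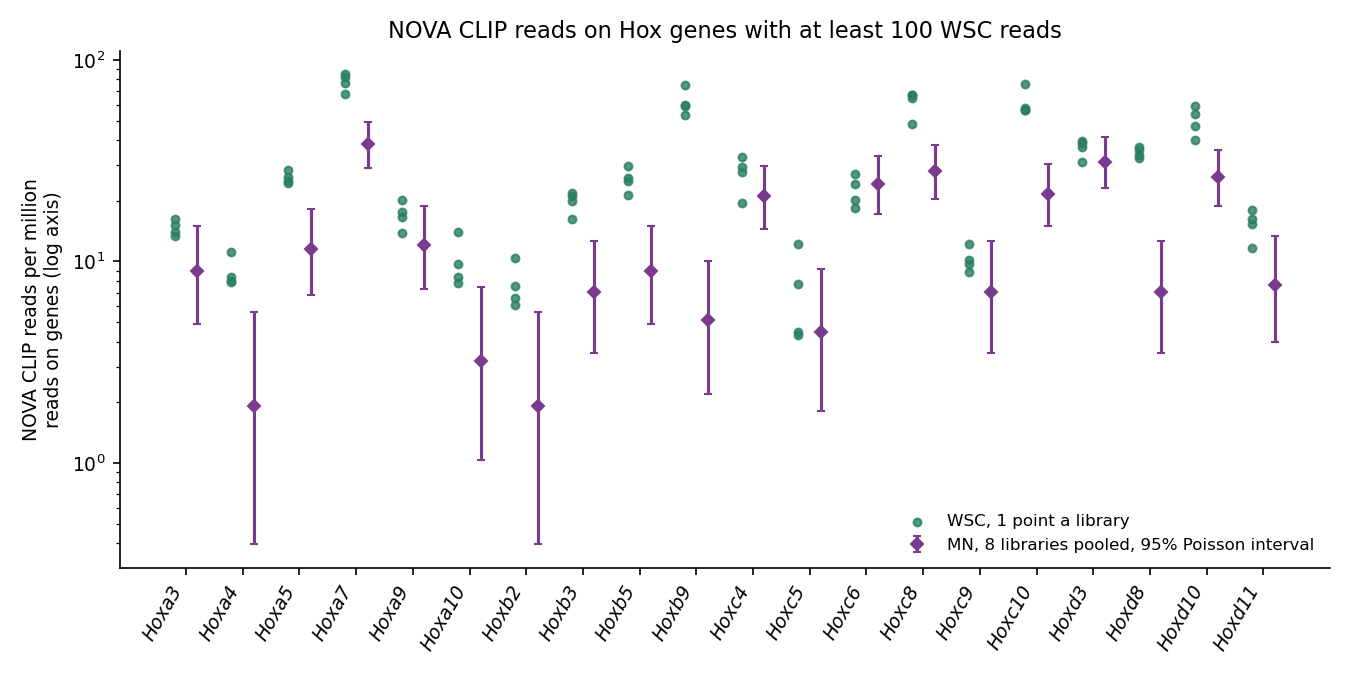
NOVA CLIP level in CPM, on a log axis, for the 20 Hox genes with at least 100 WSC reads. Circles are the 4 WSC libraries and diamonds the 8 MN libraries pooled, with exact Poisson 95% intervals that cover counting error only. Hoxb9 has the widest gap, 5.11 against 61.7 CPM, and Hoxc6 and Hoxd3 lie side by side in both.

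Genes whose WSC reads were mainly intronic had MN levels nearer to their WSC levels than genes read mainly in the 3′UTR, a comparison chosen after the values were seen and not tested. The 6 such genes summed to 99.6 CPM in MNs and 133 in WSC, a ratio of 0.747, with MN libraries from 27 to 151 and WSC libraries from 121 to 144. The 14 genes with mainly 3′UTR reads summed to 178 and 463 CPM, a ratio of 0.385, with MN libraries from 131 to 222 and WSC libraries from 447 to 504. The first overlapped between MNs and WSC and the second did not. Over all genes the share of reads in introns was 61.8% in MNs and 36.8% in WSC, a ratio of 1.68, and the ratio of the exonic shares was 0.605. The part of that shift in the Hox difference was not tested. By cluster, the MN and WSC values were 34.5 and 131 CPM for Hoxb, 79.2 and 165 for Hoxa, 74.7 and 140 for Hoxd, and 108 and 191 for Hoxc.

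By paralog group, MN CLIP reached group 11 and hardly beyond. Group 11 had 14 MN reads, 8.94 CPM, against 18.3 in WSC. Group 13 had 1 MN read over all 8 libraries, 0.638 CPM (exact Poisson 95% interval 0.0162 to 3.56), against 2.81 in WSC (2.01 to 3.83), so a difference was not detectable at this depth. Group 6 was even when pooled, at 31.3 CPM in MNs (0 to 60.2 over libraries) and 31.0 in WSC (27.8 to 33.8). In MNs, 31 of 38 Hoxc6 reads and 8 of 10 Hoxb6 reads were intronic, against 241 of 311 and 30 of 77 in WSC. The part of the larger intron share of MN reads in this was not tested.

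No Hox gene was called between the MN lines. Between lines 17 and 6, 0 of 4560 genes passed an FDR of 0.01 in edgeR (0% either way), and 214 had an unadjusted p under 0.05, while DESeq2 called 1. With the replicate number as a block, edgeR again called 0. None of these calls was a Hox gene, and 0 of the 4 Hox genes tested had an unadjusted p under 0.05.

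Hox cofactor transcripts went both ways in MN CLIP. The counts that follow stand beside 29.1% lower and 27.6% higher over all genes tested. They rest on exon and intron reads together and were not examined on exons alone. Over all genes 61.8% of MN and 36.8% of WSC reads were intronic, and the part of that difference here was not tested. Of 9 TALE genes 6 were tested, among them Meis1, higher in MNs (0.51, edgeR adjusted p = 0.0064), and Meis2, lower (-1.11, edgeR adjusted p = 4.71e-08). Of 15 Polycomb genes 3 were tested, and Phc3 (-0.94, edgeR adjusted p = 7.4e-07) and Bmi1 (-1.21, edgeR adjusted p = 0.000159) were lower and 0 higher. Of the 8 Trithorax and H3K27 demethylase genes 3 were tested, with Kmt2a lower (-0.79, edgeR adjusted p = 6.01e-07) and Kdm6a higher (0.82, edgeR adjusted p = 0.00242). Foxp1, the 1 motor column gene tested, was higher (0.50, edgeR adjusted p = 0.00334). In the retinoic acid pathway 2 of 10 were tested, with Rarb higher (0.71, edgeR adjusted p = 0.00381) and Aldh1a1 lower (-1.82, edgeR adjusted p = 2.48e-09).

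The 1 Hox cassette exon belongs to Hoxc4, a cervical-level gene. It spans chr15:102865698-102865746 on the plus strand of mm9, 49 bases, between introns of 105 and 321 bases. It begins with the bases below, in which the capitals are a stop codon in the annotated reading frame.
Hoxc4 exon start: gagcgactctgggtTAG
In the annotation the transcript with this exon codes for 151 residues and the one without it for 264. The homeodomain begins at residue 156 of the longer protein and is encoded by the last exon, so the shorter one ends before it.

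Most Hoxc4 junction reads skipped the exon. In the male library, 1 read joined the upstream exon to it, 5 joined it to the downstream exon and 26 joined the outer exons directly, and in the female library these numbers were 3, 2 and 23. Inclusion, taken as the average of the first 2 kinds divided by that average plus the third, was 10.3% in the male (Wilson 95% interval 3.58 to 26.4) and 9.80% in the female library (3.09 to 27). The mean was 10.1% ± 0.379 (SD, n = 2), and the libraries did not differ beyond counting error. With the first 2 kinds summed, not averaged, and the 1 male and 4 female reads within the exon added, inclusion came to 24.7% ± 4.89 (SD, n = 2). Hoxc4 RNA itself was at a mean of 5.04 ± 0.915 RPKM (SD, n = 2). WSC CLIP had 412 reads on Hoxc4, 65.3% of them in introns, and MN CLIP 33.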

How the data were processed

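For RNA-seq, the authors trimmed reads to 74 bases, mapped them to mm9 with OLego and counted them with Quantas. They deposited read counts and RPKM per gene, and junction read counts per cassette exon. For CLIP, the authors mapped reads with Novoalign, collapsed duplicates by random barcode and deposited read positions in mm9 (1 label lists mm10 too). The positions carry no unit of level, so counts were computed here. A read centre counted on exons of its strand first, then on introns, of GENCODE vM1 protein-coding genes. Reads on exons of more than 1 gene, or on introns of more than 1 gene, were left out. Where CLIP was set against RNA-seq, reads on exons of more than 1 gene counted for each.

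MN and WSC counts were compared with edgeR 4.0.16 (filterByExpr, TMM, quasi-likelihood test, Benjamini-Hochberg adjustment, FDR 0.01), with the mean of both lines against WSC. DESeq2 1.42.0 was an alternative. The fit was first tested on simulated data, with genes dropped by the filter taken as not called. It called 10 of 100 genes changed by 1 on the log2 scale and 52 of 100 changed by 2, with 1 false call. RNA-seq libraries were compared by RPKM ratio only, called past 1.5-fold with at least 10 reads in each. The pseudocount for log2 values was 0.1 RPKM. Intervals were 95% and cover counting error, not animals. MN replicates are pools of mice and WSC replicates single cords, and the labels do not tie replicate numbers across groups. By the name of the first read of each library, same-numbered libraries of the lines shared an instrument, and those numbered 2, 3 and 4 a flow cell. Their deviations from the group means correlated in all 4 pairs (r from 0.1003 to 0.3515), so between the lines the numbers may mark a batch. Pairs of the lines with different numbers ran from -0.2683 to 0.273. The highest of these was line 6 replicate 3 with line 17 replicate 4, which shared a flow cell. Whether the number or the flow cell marks a batch was not tested. Between MNs and WSC, same-numbered pairs ran from -0.1288 to 0.112. The main fits had no block.

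Named were the 5 highest and 5 lowest Hox genes above 0, those at 0, those past 1.5-fold or the FDR, and for other lists the highest, the lowest and those past the FDR. Single values of some listed genes are not reported here, in the text or the plots. Other Hox genes named were chosen after their values were seen. The members, lists and tests were chosen with earlier results of these data known.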

Additional observations from a re-analysis of the deposited data

Results flagged for a closer look

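In groups of 4 CLIP libraries, 46 sets of values were examined for a library far from the rest of its group by Dixon's gap-to-range ratio, which chance passes in about 1 in 20 groups, and 10 passed. Many of these rest on few reads. In line 17, replicate 1, the shallowest library, had a Hox level of 218 CPM (reads per 1000000 reads on genes) against 314 to 331 in the others, and replicate 3 had a Hoxa7 level of 90.3 CPM against 32.3 to 40.8. In line 6, replicate 1 had 0 Hoxc10 reads against 28.5 to 34.2 CPM. In WSC, replicate 1 was high for Hoxc10 (75.8 CPM against 56.1 to 57.4) and for paralog group 2 (13.3 against 9.49 to 9.99) and low for paralog group 3 (61.5 against 73.2 to 75.5). Replicate 2 was low for Hoxc8 (48.3 against 64.3 to 67.1) and for paralog group 8 (89.9 against 105 in each of the others) and high for paralog group 5 (70.2 against 53.9 to 55.5). Replicate 4 was high for Hoxa4 (11.1 against 7.91 to 8.37).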

How the results depend on the processing

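The number of Hox genes at 1 RPKM or more stayed within 1.5 times of 29 under every threshold tried and in each library alone. A pseudocount of 1 set the cluster median to 2.43 for Hoxa and 1.83 for Hoxd, and keeping genes with at least 10 reads in each library set it to 2.40 for Hoxa, 4.37 for Hoxb and 1.80 for Hoxd. With no minimum of reads, 9 Hox genes were past 1.5-fold between the RNA-seq libraries, and with at least 50 reads in each, 3. The count of 4 Hox genes lower in MN CLIP became 12 without the filter, 0 on exons, 2 for line 6 alone, and, in settings added after seeing the data, 2 on exons without the filter, 6 with shared exon reads counted for each gene (Hoxb7 and Hoxb8 added) and 9 with the MN libraries of the WSC flow cell (18 tested, where 20.9% of all genes were lower). Leaving out 1 library gave 1 to 6. Where the filter was kept, genes low in MN depth passed it through their WSC reads, so these counts are no evidence about Hox genes as a group. Without any 1 WSC library the filter kept fewer Hox genes: 1 was lower without replicate 1 or 3 and 2 without replicate 2 or 4. The genes lower overall became 2682 without the filter and 544 on exons, and those higher 526 on exons and 511 on exons without the filter. Between the lines DESeq2 called 1 gene higher, and leaving out 1 library called 0 to 3, with 3 without line 17 replicate 4. Hoxc4 inclusion was 24.7% with both kinds of inclusion junction read summed, not averaged, and reads within the exon added. With the replicate number as a block, 989 genes were higher and 1092 lower, the same 4 Hox genes among the latter. No other call changed by over 1.5 times with the block. Between the lines, same-numbered libraries shared an instrument and correlated in every pair, but pairs with different numbers reached r = 0.273. The block left 0 calls between the lines, while between MNs and WSC not every same-numbered pair correlated. The causes of these shifts were not tested, beyond fewer genes tested in the settings that say so. MN depth limits all CLIP values, and 1 RNA-seq library per sex limits the ratios.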
